A study of Mus musculus with 15 samples.

Results

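In all, 10 genes of the late neutrophil granules were followed here: Ltf, Camp, Ngp, Lcn2, Chil3, Cd177, Mmp8, Mmp9, Mmp25 and Retnlg. They were taken by gene symbol from the table of read counts, where each symbol had 1 entry among 52327 that name a gene. The libraries came from a mouse line called HoxB in the labels, with the cell type given as Blood, and formed 5 groups of 3. RUNX1-ETO_FIRST and CSF3R_FIRST cells carried both RUNX1-ETO and CSF3R-T618I and differed in the order in which the alleles were introduced, as their names give it. RUNX1-ETO_ONLY cells had RUNX1-ETO alone, a transcription factor fusion found in acute myeloid leukaemia. CSF3R_ONLY cells had only CSF3R-T618I, a mutant of the granulocyte colony-stimulating factor (G-CSF) receptor, and EMPTY cells received control vectors. The labels do not say whether a group is 1 clone or a pool, which promoters drive the introduced genes, or whether replicates were separate cultures. All p-values therefore rest on the variation among libraries of a group, part or all of which could be technical.

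Neutrophils fill their granules in the order in which the contents are made. Peroxidase and elastase, made early, go to the primary granules. Lactoferrin, cathelicidin and lipocalin 2, made by myelocytes, go to the secondary granules, and gelatinase, made later still, goes to the tertiary granules. C/EBP-epsilon is a transcription factor required for secondary granule genes in mice and humans, and G-CSF is the cytokine that drives granulocyte production. RUNX1-ETO is known as a fusion that blocks granulocyte maturation, and CSF3R-T618I as a receptor that signals without its ligand in chronic neutrophilic leukaemia.

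Each library held 17003189 to 18173954 counts assigned to genes, and 13123 genes passed the expression filter. All 10 members passed it, although Mmp25 passed only through the CSF3R_ONLY libraries, so its calls in comparisons with that group are not independent of the filter. Runx1t1, whose human counterpart gives ETO, averaged 494 ± 99.2, 711 ± 134 and 448 ± 61.3 CPM in RUNX1-ETO_FIRST, CSF3R_FIRST and RUNX1-ETO_ONLY cells and had 0 counts in all CSF3R_ONLY and EMPTY libraries (SD, n = 3 each; CPM, reads of a gene relative to the scaled total of its library). Csf3r counts cannot check the receptor label, because no label names the species that the introduced sequences come from. The pan-leukocyte gene Ptprc averaged between 128 and 317 CPM in every group. In 4 libraries, long transcripts were low relative to the other libraries of the group: RUNX1-ETO_FIRST replicate 1, CSF3R_FIRST replicate 3, RUNX1-ETO_ONLY replicate 3 and EMPTY replicate 3. Across genes, the deviation of these libraries correlated with transcript length at −0.275, −0.282, −0.334 and −0.478. Lcn2 and Ngp were highest of their group in each of these 4 libraries. Whether this property shaped their values was not tested, and values computed without these libraries stand beside each call that they end.

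The members lie at scattered places in the genome, apart from a group on chromosome 9 (mm10; GENCODE M21 gene models, all protein coding). Camp (minus strand), Ngp and Ltf (both plus) lie within 1.20 Mb, between 109847379 and 111042767. Mmp8 lies elsewhere on the same chromosome, at 7558456 to 7568485 on the plus strand. Lcn2 (32384633 to 32388252, minus) and Mmp9 (164940780 to 164955850, plus) are on chromosome 2, Chil3 on chromosome 3 (106147554 to 106167564, minus) and Cd177 on chromosome 7 (24743983 to 24760311, minus). Retnlg is on chromosome 16 (48872621 to 48874496, plus) and Mmp25 on chromosome 17 (23628311 to 23645277, minus). Mmp25 is overlapped on the other strand by 2 processed pseudogenes, and since the strand setting of the counting is not given, reads of the pseudogenes may be among its few counts. Chil3 has a near-identical paralog, Chil4, which had 0 counts in every library.

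The RefSeq promoter table (GRCm38.p6, the mm10 build) held 9 of the 10 members, all but Mmp9. The 250 bases before each start were searched on both strands for a core C/EBP motif, TTGCNNAA, since C/EBP factors are the known regulators of these genes. Of the 9 members 5 held it (Lcn2, Mmp8, Ngp, Ltf and Retnlg), against 9.56% of all 32851 windows of that length. Windows of 4 are shown, and these genes take different courses below: Ngp falls with the fusion, Ltf does not pass the test there, and Mmp8 and Retnlg rise. The Lcn2 window lies wholly inside its annotated gene and is not shown, though its match is among the 5. Capitals mark the motif. Bases inside an annotated transcript were left out, so the Ngp and Ltf stretches stop short of the RefSeq start, and a second Ngp match nearer the start is not shown.
Ngp, chr9:110419558-110419746, plus strand: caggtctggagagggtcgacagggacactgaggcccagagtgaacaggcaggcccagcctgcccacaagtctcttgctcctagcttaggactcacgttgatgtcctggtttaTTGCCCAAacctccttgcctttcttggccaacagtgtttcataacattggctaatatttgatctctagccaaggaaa
Ltf, chr9:111019042-111019270, plus strand: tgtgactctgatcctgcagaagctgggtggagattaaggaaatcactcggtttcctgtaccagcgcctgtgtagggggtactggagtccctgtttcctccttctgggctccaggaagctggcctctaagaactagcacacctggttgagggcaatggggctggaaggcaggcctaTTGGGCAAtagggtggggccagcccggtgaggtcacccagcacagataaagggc
Mmp8, chr9:7558179-7558428, plus strand: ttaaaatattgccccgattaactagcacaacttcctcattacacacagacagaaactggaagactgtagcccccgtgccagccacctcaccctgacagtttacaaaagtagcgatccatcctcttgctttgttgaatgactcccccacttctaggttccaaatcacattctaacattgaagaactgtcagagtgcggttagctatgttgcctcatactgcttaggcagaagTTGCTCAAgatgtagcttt
Retnlg, chr16:48872358-48872607, plus strand: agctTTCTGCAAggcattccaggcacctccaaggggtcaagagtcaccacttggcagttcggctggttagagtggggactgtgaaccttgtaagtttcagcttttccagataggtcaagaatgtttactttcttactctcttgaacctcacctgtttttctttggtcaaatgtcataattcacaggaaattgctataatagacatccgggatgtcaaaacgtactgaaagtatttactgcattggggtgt
The RUNX motif TGTGGT was found in 0 of the 9 windows, against 14% of all windows, and the PU.1 motif GAGGAA in 5, against 23.3%. The STAT motif TTCNNNGAA was found in 1 (Chil3; 7.02% of all windows) and the GATA motif AGATAA in 2 (Chil3 and Ltf; 9.99%). A match is a description of the letters and not a bound site, and a missing match says nothing of a factor that binds elsewhere.

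Of the 10 members, 9 were highest in CSF3R_ONLY cells, with all 3 libraries above every library of the other groups. Chil3 was the exception. The share of all genes with such a separation was not counted, so the number only describes the members. Below that top level the members parted: Ltf, Camp and Ngp were lowest by group mean in RUNX1-ETO_FIRST cells, Lcn2 in RUNX1-ETO_ONLY cells, and the other 6 in EMPTY cells. Fewer cells making a transcript and less transcript per cell cannot be told apart in bulk RNA.

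Ltf encodes lactoferrin, the iron-binding protein of secondary granules. It stood at 4.15, 2.36 and 2.71 CPM in RUNX1-ETO_FIRST libraries, 5.83, 8.73 and 5.94 CPM in CSF3R_FIRST, 9.43, 8.27 and 7.38 CPM in RUNX1-ETO_ONLY, 47.0, 51.7 and 48.1 CPM in CSF3R_ONLY and 6.44, 7.88 and 8.21 CPM in EMPTY. CSF3R_FIRST, RUNX1-ETO_ONLY and EMPTY overlapped, RUNX1-ETO_FIRST lay below them and CSF3R_ONLY above.

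Camp encodes the cathelicidin precursor, an antimicrobial peptide. Its levels were low throughout, at 0.224, 0.330 and 0 CPM in RUNX1-ETO_FIRST libraries, 0.180, 0.531 and 0.242 CPM in CSF3R_FIRST, 0.357, 0.719 and 0.943 CPM in RUNX1-ETO_ONLY, 2.57, 2.95 and 2.82 CPM in CSF3R_ONLY and 1.43, 1.33 and 1.38 CPM in EMPTY. Every library with the fusion lay below every EMPTY library. At 0 to 18 counts a library in the 3 fusion groups, Camp gives the least precise changes of the secondary granule members.

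Ngp encodes neutrophilic granule protein, a cystatin-related protein of mouse neutrophils. It was found at 51.5, 36.6 and 40.5 CPM in RUNX1-ETO_FIRST libraries, 72.3, 65.3 and 86.8 CPM in CSF3R_FIRST, 64.1, 61.5 and 72.5 CPM in RUNX1-ETO_ONLY, 1729, 1674 and 1714 CPM in CSF3R_ONLY and 279, 270 and 379 CPM in EMPTY. As with Camp, all libraries with the fusion lay below EMPTY and those with the receptor alone above it.

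Lcn2 encodes lipocalin 2, which binds bacterial siderophores. Values were 643, 553 and 573 CPM in RUNX1-ETO_FIRST libraries, 865, 814 and 1047 CPM in CSF3R_FIRST, 357, 359 and 428 CPM in RUNX1-ETO_ONLY, 2442, 2370 and 2241 CPM in CSF3R_ONLY and 347, 335 and 609 CPM in EMPTY. EMPTY replicate 3 stood well above the other EMPTY libraries and overlapped RUNX1-ETO_FIRST.

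Chil3 encodes Ym1, a chitinase-like protein. It reached 33.2, 32.4 and 27.6 CPM in RUNX1-ETO_FIRST libraries, 69.4, 73.6 and 85.1 CPM in CSF3R_FIRST, 70.8, 66.0 and 80.5 CPM in RUNX1-ETO_ONLY, 29.6, 31.3 and 28.1 CPM in CSF3R_ONLY and 11.0, 7.05 and 11.2 CPM in EMPTY. CSF3R_FIRST and RUNX1-ETO_ONLY overlapped at the top, RUNX1-ETO_FIRST and CSF3R_ONLY in the middle, and EMPTY was lowest.

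Cd177 encodes a surface glycoprotein stored in secondary granules. It measured 3.87, 3.46 and 3.72 CPM in RUNX1-ETO_FIRST libraries, 6.85, 4.72 and 6.06 CPM in CSF3R_FIRST, 1.73, 1.18 and 1.05 CPM in RUNX1-ETO_ONLY, 31.1, 36.5 and 30.5 CPM in CSF3R_ONLY and 1.10, 0.888 and 1.32 CPM in EMPTY. The fusion alone overlapped EMPTY, and the other 3 groups lay above both without overlapping each other.

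Mmp8 encodes neutrophil collagenase. Its levels formed 5 separate steps: 22.6, 23.4 and 24.1 CPM in RUNX1-ETO_FIRST libraries, 79.4, 71.3 and 77.4 CPM in CSF3R_FIRST, 12.9, 10.2 and 10.7 CPM in RUNX1-ETO_ONLY, 160, 172 and 145 CPM in CSF3R_ONLY and 2.53, 3.22 and 3.30 CPM in EMPTY. No other member separated all 5 groups.

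Mmp9 encodes gelatinase B, the enzyme that gives tertiary granules their older name of gelatinase granules. It was at 1.57, 0.715 and 1.18 CPM in RUNX1-ETO_FIRST libraries, 3.19, 2.18 and 3.15 CPM in CSF3R_FIRST, 0.0510, 0.411 and 0.157 CPM in RUNX1-ETO_ONLY, 53.4, 51.5 and 50.0 CPM in CSF3R_ONLY and 0.110, 0.222 and 0.120 CPM in EMPTY. RUNX1-ETO_ONLY and EMPTY overlapped at 8 or fewer counts a library.

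Mmp25 encodes a membrane-anchored matrix metalloproteinase of neutrophils. It had 2, 4 and 2 counts in RUNX1-ETO_FIRST libraries, 9, 8 and 5 in CSF3R_FIRST, 4, 0 and 1 in RUNX1-ETO_ONLY, 81, 96 and 100 in CSF3R_ONLY and 0, 1 and 1 in EMPTY. RUNX1-ETO_FIRST, RUNX1-ETO_ONLY and EMPTY therefore sat at or near the detection limit.

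Retnlg encodes a small secreted resistin-like protein of mouse neutrophils, placed here with the tertiary granule genes. It stood at 2.30, 1.81 and 1.30 CPM in RUNX1-ETO_FIRST libraries, 3.07, 4.07 and 4.42 CPM in CSF3R_FIRST, 1.12, 1.90 and 1.57 CPM in RUNX1-ETO_ONLY, 34.9, 36.8 and 29.1 CPM in CSF3R_ONLY and 0.110, 0.278 and 0.180 CPM in EMPTY. Every group with an allele lay above EMPTY, and RUNX1-ETO_FIRST overlapped RUNX1-ETO_ONLY.

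**Figure D1:**
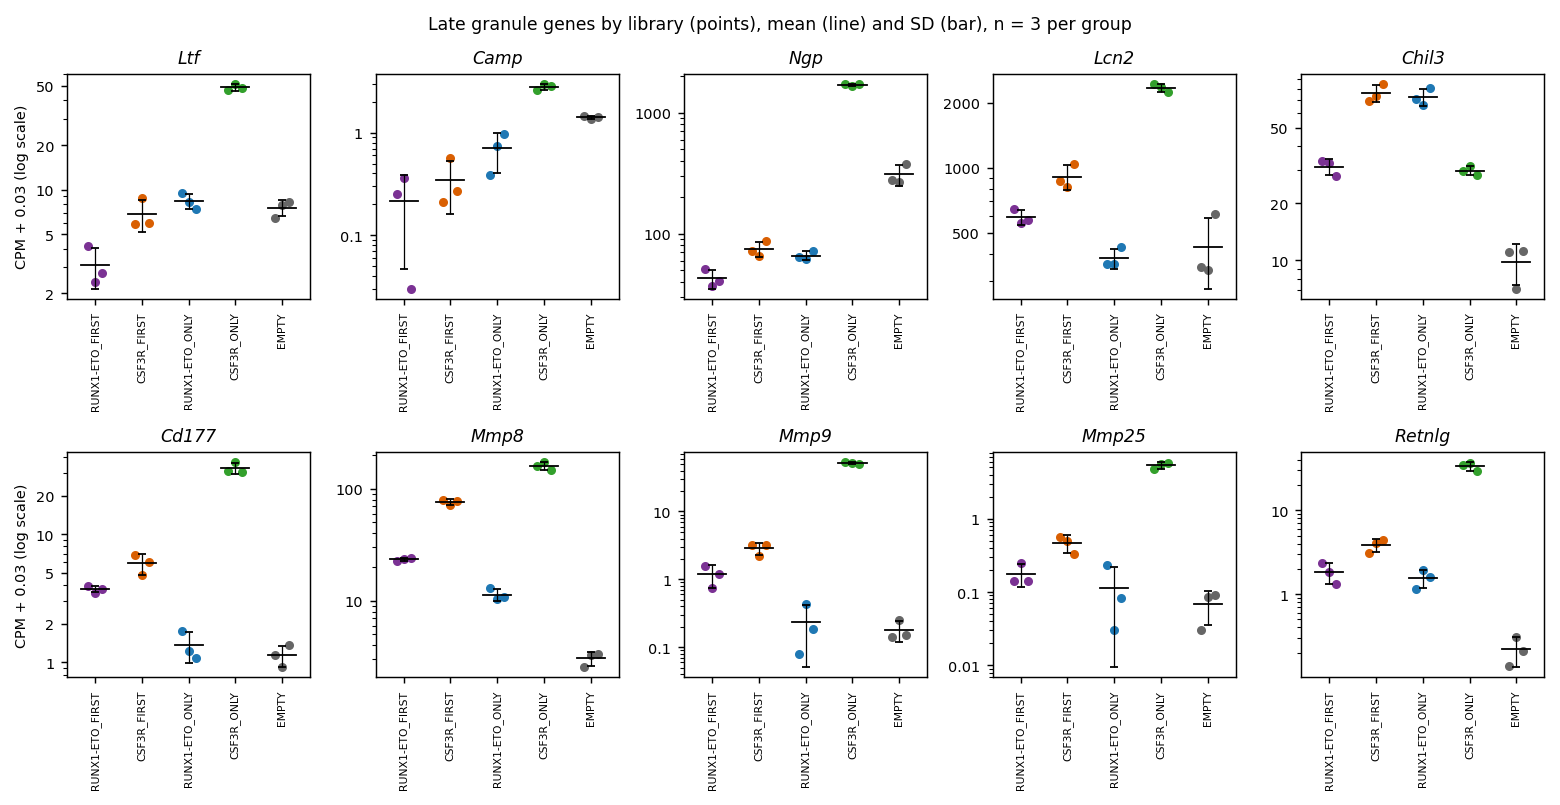
Levels of the 10 members in every library, in CPM with an offset of 0.03 added on a log scale whose range differs between panels; points are libraries, lines are means and bars are SD (n = 3 per group). CSF3R_ONLY is the top group in every panel but that of Chil3, where CSF3R_FIRST (mean 76.0 CPM) and RUNX1-ETO_ONLY (mean 72.4 CPM) stand highest.

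Counts were divided by exon length to set the genes against each other. Ngp and Lcn2 led in every group. In CSF3R_ONLY cells Ngp reached 1396 CPM per kb of exon and Lcn2 896, followed by Mmp8 at 65.7, Retnlg at 56.7, Chil3 at 18.2, Mmp9 at 14.6, Ltf at 14.2, Cd177 at 11.5, Camp at 3.67 and Mmp25 at 1.01. In EMPTY cells Ngp was at 253 CPM per kb and Lcn2 at 164, and no other member passed the 5.97 of Chil3. In all 3 groups with the fusion Lcn2 was above Ngp, at 225 against 35.1 CPM per kb in RUNX1-ETO_FIRST cells, 346 against 61.2 in CSF3R_FIRST cells and 145 against 54.0 in RUNX1-ETO_ONLY cells. All 10 members together took 0.0692% ± 0.00503 of counts in RUNX1-ETO_FIRST, 0.107% ± 0.0124 in CSF3R_FIRST, 0.0586% ± 0.00489 in RUNX1-ETO_ONLY, 0.434% ± 0.0114 in CSF3R_ONLY and 0.0776% ± 0.0190 in EMPTY libraries (SD, n = 3 each). Ngp and Lcn2 made up between 81.3% and 97.5% of them in a library.

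The mutant receptor alone was compared with the control vectors to read its effect on these genes. All members were called higher in CSF3R_ONLY cells, among them Mmp25, which passed the filter only through that group. In this comparison 33.1% of all genes tested were called, 19.9% higher and 13.2% lower (edgeR quasi-likelihood test, Benjamini-Hochberg adjusted p under 0.05). With library sizes alone as the scaling, 2247 genes were called higher and 2333 lower, against 2617 and 1730 here. Mmp9 and Retnlg, placed with the tertiary granules, had the largest fitted changes. Mmp9 averaged 51.6 ± 1.72 CPM in CSF3R_ONLY and 0.151 ± 0.0620 CPM in EMPTY cells (SD, n = 3 each), a log2 change of 8.35 (SE 0.304; edgeR adjusted p = 8.91e-12). Retnlg averaged 33.6 ± 4.01 and 0.189 ± 0.0841 CPM in CSF3R_ONLY and EMPTY cells (log2 change 7.42, SE 0.285; edgeR adjusted p = 1.61e-11). Their EMPTY levels rest on 2 to 5 counts a library. Mmp25 had 277 counts in CSF3R_ONLY and 2 in EMPTY libraries, a ratio of counts per total of 141 with a 95% counting interval of 38.8 to 1170.

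Among the secondary granule genes, Mmp8 rose 52.8-fold (log2 change 5.72, SE 0.126; edgeR adjusted p = 5.57e-14) and Cd177 29.6-fold (4.89, SE 0.190). Ltf rose 6.52-fold, Ngp 5.51-fold and Lcn2 5.47-fold. Chil3 rose 3.05-fold and Camp 2.01-fold. The median log2 change was 3.80 over the 10 members, with Mmp25 at its fitted value, 2.46 over the 7 secondary granule genes, and 0 over all genes tested. The call of Camp (log2 change 1.01, SE 0.360; edgeR adjusted p = 0.0425) was lost without any one CSF3R_ONLY or EMPTY library, without CSF3R_FIRST replicate 3 or without RUNX1-ETO_ONLY replicate 2, at adjusted p = 0.0512 to 0.120, and with library sizes alone, at 0.0537.

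In RUNX1-ETO_ONLY against EMPTY cells 3 members rose and 1 fell, while 39% of all genes tested were called, 20.8% higher and 18.2% lower. The share of members called, 4 of 10, was thus close to that of all genes, and only the single members are described. Chil3 rose 7.44-fold, to 72.4 ± 7.39 CPM in RUNX1-ETO_ONLY against 9.74 ± 2.33 CPM in EMPTY cells (log2 change 2.90, SE 0.150; edgeR adjusted p = 3.48e-10). Retnlg rose 7.83-fold (2.97, SE 0.406; adjusted p = 2.39e-05) and Mmp8 3.74-fold (1.90, SE 0.128; adjusted p = 7.69e-09). Ngp fell 4.69-fold, to 66.0 ± 5.74 CPM in RUNX1-ETO_ONLY against 309 ± 60.7 CPM in EMPTY cells (log2 change −2.23, SE 0.149; edgeR adjusted p = 7.43e-09).

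The other 6 members did not pass the test with the fusion alone. Ltf had a log2 change of 0.16 (SE 0.181), Cd177 of 0.27 (SE 0.253) and Lcn2 of −0.17 (SE 0.179). Lcn2 changed sign without EMPTY replicate 3, at 0.14, and when the 4 libraries low in long transcripts were left out, at 0.05. Camp had a log2 change of −1.03 (SE 0.418; edgeR adjusted p = 0.0630), which passed without those 4 libraries (−1.37; adjusted p = 0.0143), without RUNX1-ETO_ONLY replicate 3 or RUNX1-ETO_FIRST replicate 3, by DESeq2 (adjusted p = 0.0211) and by limma-voom (0.0286). Mmp9 (0.43, SE 0.701) and Mmp25 (1.05, SE 1.02) were too sparse for a direction: without RUNX1-ETO_ONLY replicate 2 the value of Mmp9 was −0.52, and without RUNX1-ETO_ONLY replicate 1 that of Mmp25 was −0.44. Mmp25 had 5 counts in RUNX1-ETO_ONLY and 2 in EMPTY libraries, a ratio of 2.27 with a 95% interval of 0.372 to 23.8.

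Cells with both alleles were also set against EMPTY. These comparisons share the EMPTY libraries with the ones above and are therefore not independent of them. In RUNX1-ETO_FIRST cells 5 members were higher than in EMPTY and 3 were lower, with 43.9% of all genes tested called, 23.7% higher and 20.2% lower. Library sizes alone gave 2877 genes higher and 3085 lower, against 3114 and 2653 here. The 5 were Chil3 (log2 change 1.68, SE 0.149), Cd177 (1.74, SE 0.218), Mmp8 (2.95, SE 0.124), Mmp9 (2.87, SE 0.492) and Retnlg (3.21, SE 0.398). Ltf (−1.29, SE 0.204), Camp (−2.85, SE 0.531) and Ngp (−2.85, SE 0.154) were the 3 lower ones. Without RUNX1-ETO_FIRST replicate 2 the Camp value was −3.54.

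Lcn2 did not pass the test in RUNX1-ETO_FIRST against EMPTY cells (log2 change 0.45, SE 0.179; edgeR adjusted p = 0.0519). It passed without EMPTY replicate 3, at 0.77 (adjusted p = 4.18e-06), and with the 4 libraries low in long transcripts left out, at 0.70 (adjusted p = 4.81e-14). Both settings drop the EMPTY library in which Lcn2 was highest, and the latter drops that of RUNX1-ETO_FIRST too. This narrows the spread on which these p-values rest. Lcn2 also passed with the replicate block (adjusted p = 0.0168), by limma-voom (4.6e-07), by DESeq2 (0.0296) and in edgeR with DESeq2 size factors (0.0439) or library sizes alone (0.0448). Mmp25, with 8 counts in RUNX1-ETO_FIRST and 2 in EMPTY libraries, had a ratio of 3.93 (95% interval 0.785 to 38.0).

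In CSF3R_FIRST cells 7 members were higher than in EMPTY and 2 were lower, with 53.5% of all genes tested called, 26.8% higher and 26.7% lower. With library sizes alone as the scaling, 2942 genes were called higher and 4830 lower, against 3516 and 3504 here, and the members' counts stayed at 7 and 2. With only the groups compared they were 6 and 2, because Mmp25 did not pass the filter there and was not tested. Mmp8 was 25.2-fold higher (log2 change 4.66, SE 0.124), Retnlg 19.7-fold higher, and Mmp9 had a log2 change of 4.17. Chil3 was 7.81-fold, Cd177 5.32-fold and Lcn2 2.11-fold higher. Mmp25 had 22 counts in CSF3R_FIRST and 2 in EMPTY libraries, a ratio of 11.6 (95% interval 2.85 to 102). Camp (log2 change −2.09, SE 0.488) and Ngp (−2.05, SE 0.148) were the 2 lower members. Ltf, at −0.13 (SE 0.186), did not pass the test, and its value was 0.03 without the 4 libraries low in long transcripts.

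**Figure D2:**
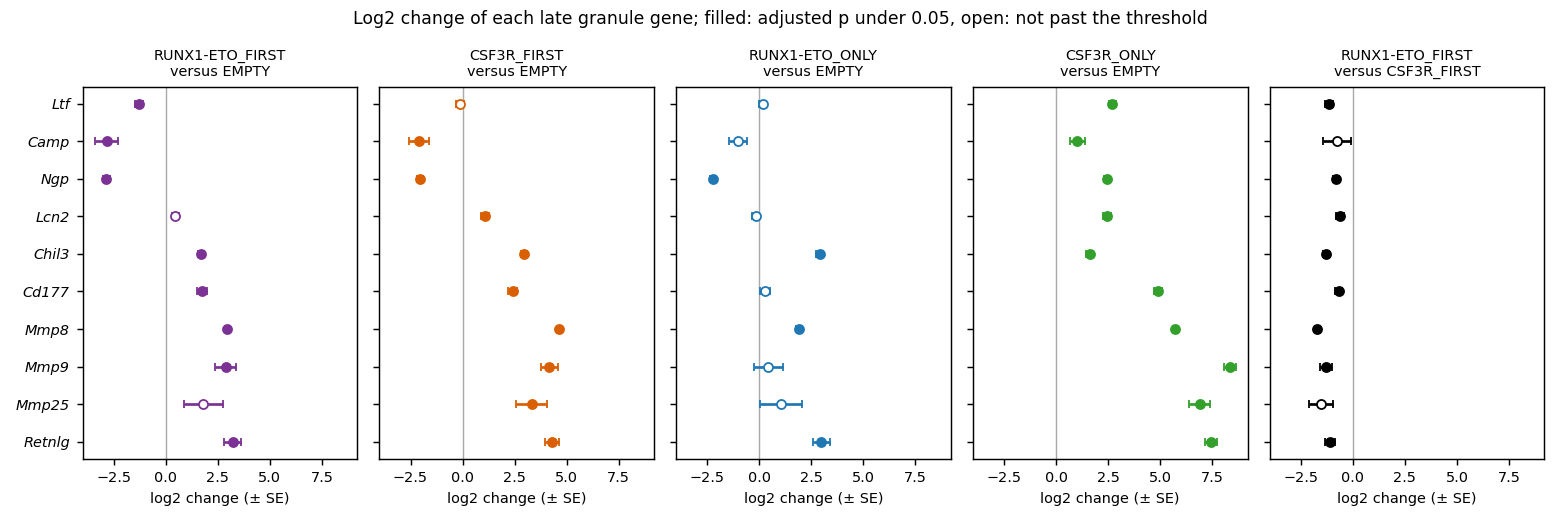
Log2 change of each member (x axis) with its SE in 4 comparisons with EMPTY and in the comparison of the orders; filled points passed an adjusted p of 0.05 and open points did not. All 10 points lie right of 0 in CSF3R_ONLY, Ngp and Camp lie left of 0 in all 3 groups with the fusion, and all 10 lie left of 0 in RUNX1-ETO_FIRST against CSF3R_FIRST.

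The 2 orders of the alleles were compared by setting RUNX1-ETO_FIRST against CSF3R_FIRST cells, which carry the same alleles. Each order is 1 group of 3 libraries. An effect of order therefore cannot be told apart from other differences between the 2 groups, and every other comparison of groups here has this limit. Runx1t1 averaged 494 ± 99.2 CPM in RUNX1-ETO_FIRST and 711 ± 134 CPM in CSF3R_FIRST cells, and its part was not tested. Of the 10 members, 8 were lower with the fusion first and 0 were higher, while 18.3% of all genes tested were called, 11.1% lower and 7.22% higher. Library sizes alone turned the split of all genes, to 1131 lower and 1841 higher against 1459 and 948 here, and left the members at 8 lower and 0 higher. Mmp8 differed most surely, at 23.4 ± 0.737 CPM in RUNX1-ETO_FIRST and 76.1 ± 4.25 CPM in CSF3R_FIRST cells (SD, n = 3 each), a 3.25-fold difference (log2 change −1.70, SE 0.10; edgeR adjusted p = 2.47e-08). Chil3 averaged 31.1 ± 3.03 CPM in RUNX1-ETO_FIRST and 76.0 ± 8.12 CPM in CSF3R_FIRST cells, 2.45-fold lower (log2 change −1.29, SE 0.137; edgeR adjusted p = 9.57e-06). Mmp9 was 2.45-fold, Ltf 2.23-fold, Retnlg 2.13-fold and Ngp 1.74-fold lower with the fusion first. The median log2 change was −1.12 over the 10 members and 0.00 over all genes.

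Cd177 and Lcn2 passed by a narrower margin. Cd177 averaged 3.68 ± 0.205 CPM in RUNX1-ETO_FIRST and 5.88 ± 1.08 CPM in CSF3R_FIRST cells (log2 change −0.67, SE 0.173; edgeR adjusted p = 0.0124), and its call was lost without CSF3R_FIRST replicate 1 (adjusted p = 0.0644) or RUNX1-ETO_FIRST replicate 2 (0.0520). Lcn2 averaged 589 ± 47.3 CPM in RUNX1-ETO_FIRST and 909 ± 122 CPM in CSF3R_FIRST cells (log2 change −0.62, SE 0.179; edgeR adjusted p = 0.0237). Its call was lost without CSF3R_FIRST replicate 3 (adjusted p = 0.0886), RUNX1-ETO_FIRST replicate 2 (0.0876) or RUNX1-ETO_FIRST replicate 3 (0.0679), and with no filter on low counts (0.0819). Camp (log2 change −0.76, SE 0.684) and Mmp25 (−1.52, SE 0.576) did not pass the test. The value of Mmp25 had an adjusted p of 0.0825, and of 0.0498 without RUNX1-ETO_ONLY replicate 1.

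Each double group was then set against the single group whose allele it received first. Against RUNX1-ETO_ONLY cells, 4 members were higher in RUNX1-ETO_FIRST cells and 4 were lower. Of all genes tested, 26.3% were called, 16% higher and 10.3% lower. Library sizes alone gave 1668 genes higher and 2698 lower, against 2097 and 1357 here, and the members' counts were again 4 and 4. Mmp9 was 5.44-fold higher, at 1.16 ± 0.428 CPM in RUNX1-ETO_FIRST and 0.206 ± 0.185 CPM in RUNX1-ETO_ONLY cells (log2 change 2.44, SE 0.448; edgeR adjusted p = 0.000705), and its log2 change was 3.39 without RUNX1-ETO_ONLY replicate 2. Cd177 was 2.78-fold, Mmp8 2.07-fold and Lcn2 1.55-fold higher. Ltf was 2.72-fold lower, at 3.07 ± 0.947 CPM in RUNX1-ETO_FIRST and 8.36 ± 1.03 CPM in RUNX1-ETO_ONLY cells (log2 change −1.44, SE 0.201; edgeR adjusted p = 5.72e-05). Chil3 was 2.33-fold and Ngp 1.54-fold lower.

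Camp was lower by 1.81 on the log2 scale (SE 0.585; edgeR adjusted p = 0.0315), and by 2.51 without RUNX1-ETO_FIRST replicate 2. Its call was lost without RUNX1-ETO_FIRST replicate 1 or 3, without RUNX1-ETO_ONLY replicate 2 or 3, and with those 4 libraries low in long transcripts left out (adjusted p = 0.0631, 0.0928, 0.0771, 0.118 and 0.0648). With only the groups compared, Camp did not pass the filter and was not tested. The Lcn2 call was lost without RUNX1-ETO_FIRST replicate 1, RUNX1-ETO_ONLY replicate 1 or RUNX1-ETO_ONLY replicate 2 (adjusted p = 0.0622, 0.0648 and 0.0625) and with no filter on low counts (0.0725). Retnlg (log2 change 0.24, SE 0.257) and Mmp25 (0.75, SE 0.772) did not pass the test.

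Against CSF3R_ONLY cells, 9 members were lower in CSF3R_FIRST cells and 1 was higher. Of all genes tested, 44.9% were called, 22.6% lower and 22.3% higher. The near-even split of all genes, 2971 lower and 2924 higher, became 3640 lower and 2520 higher with library sizes alone and 2734 lower and 3092 higher with DESeq2 size factors, and the members' counts stayed at 9 and 1. Mmp25, among the 9, had passed the filter only through CSF3R_ONLY. Ngp fell 22.8-fold, to 74.8 ± 11.0 CPM in CSF3R_FIRST against 1706 ± 28.3 CPM in CSF3R_ONLY cells (log2 change −4.51, SE 0.164; edgeR adjusted p = 5.31e-12). Mmp9 fell 18.2-fold, Mmp25 by 3.59 on the log2 scale, Retnlg 8.71-fold, Camp 8.54-fold, Ltf 7.15-fold and Cd177 5.56-fold. Lcn2 and Mmp8 fell least, 2.59-fold and 2.09-fold. Chil3 was the 1 member that rose, 2.56-fold (log2 change 1.36, SE 0.137; edgeR adjusted p = 7.25e-07). All 10 calls were kept when any 1 library was left out.

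Whether the receptor acted differently with and without the fusion was tested by the difference between the change in a double group and the sum of both single changes, all against EMPTY on the log2 scale. All members were called below the sum in both orders. For Mmp25 the call is not independent of the filter, which it passed only through CSF3R_ONLY, a group that enters its sum. In RUNX1-ETO_FIRST cells 15.8% of all genes tested departed from the sum, 9.42% below and 6.42% above it, and in CSF3R_FIRST cells 22.9% did, 12.5% below and 10.4% above. With library sizes alone, 2725 genes were below and 1003 above in CSF3R_FIRST cells, against 1636 and 1368 here. The difference from the sum ran from −1.82 (Lcn2) to −7.18 (Retnlg) in RUNX1-ETO_FIRST cells and from −1.20 (Lcn2) to −6.09 (Retnlg) in CSF3R_FIRST cells.

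Mmp8 shows how the sum compares. Its log2 change was 2.95 in RUNX1-ETO_FIRST and 4.66 in CSF3R_FIRST cells, against 1.90 with the fusion alone and 5.72 with the receptor alone, which sum to 7.63. The differences from the sum were −4.67 (SE 0.162; edgeR adjusted p = 1.13e-10) in RUNX1-ETO_FIRST and −2.97 (SE 0.160; edgeR adjusted p = 8.07e-09) in CSF3R_FIRST cells. Ltf changed by −1.29 in RUNX1-ETO_FIRST cells, where the single changes of 0.16 and 2.70 sum to 2.86, a difference of −4.15 (SE 0.263; edgeR adjusted p = 3.76e-08). Chil3, raised by each allele alone, changed by 1.68 in RUNX1-ETO_FIRST and 2.97 in CSF3R_FIRST cells against a sum of 4.50. Its value in CSF3R_FIRST cells lay beside the 2.90 of the fusion alone.

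The sparse members make the least certain part of this test. The Mmp25 calls were lost without RUNX1-ETO_ONLY replicate 1, at −4.66 in RUNX1-ETO_FIRST (edgeR adjusted p = 0.197) and −3.14 in CSF3R_FIRST cells (edgeR adjusted p = 0.326). Without RUNX1-ETO_ONLY replicate 2 the Mmp9 values were −4.96 in RUNX1-ETO_FIRST and −3.66 in CSF3R_FIRST cells, against −5.90 and −4.61. The Camp call in CSF3R_FIRST cells (−2.06; edgeR adjusted p = 0.0303) was lost without CSF3R_FIRST replicate 1 or 3, CSF3R_ONLY replicate 2 or 3, RUNX1-ETO_ONLY replicate 2 or 3, or the 4 libraries low in long transcripts, at adjusted p = 0.0590 to 0.0899. In RUNX1-ETO_FIRST cells the Camp value of −2.82 was −3.51 without RUNX1-ETO_FIRST replicate 2.

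**Figure D3:**
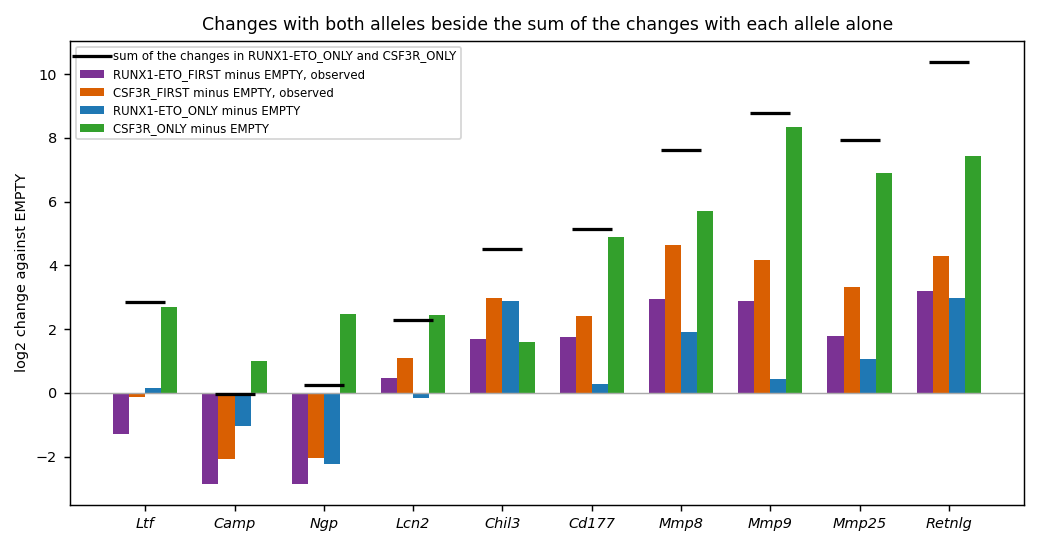
Log2 change against EMPTY of each member (y axis) in the 2 double groups and the 2 single groups as bars, with the sum of both single changes as a black line. Every double-group bar ends below its line, by between −1.20 for Lcn2 in CSF3R_FIRST and −7.18 for Retnlg in RUNX1-ETO_FIRST.

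Ratios between members inside a library do not depend on the scaling between libraries. Ngp counts per base were 0.155 ± 0.0151 of those of Lcn2 in RUNX1-ETO_FIRST, 0.176 ± 0.00380 in CSF3R_FIRST, 0.372 ± 0.0116 in RUNX1-ETO_ONLY, 1.56 ± 0.0716 in CSF3R_ONLY and 1.60 ± 0.225 in EMPTY libraries (SD, n = 3 each). Every library with the fusion lay below every library without it, and the receptor alone overlapped EMPTY. Ltf over Lcn2 took another course, at 0.00392 ± 0.000875 in RUNX1-ETO_FIRST and 0.00586 ± 0.00203 in CSF3R_FIRST, against 0.0169 ± 0.00353 in RUNX1-ETO_ONLY, 0.0159 ± 0.00106 in CSF3R_ONLY and 0.0141 ± 0.00381 in EMPTY libraries. Both double groups lay below the other 3 groups, which overlapped.

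Mmp8 over Ltf moved the other way. It was 11.5 ± 3.32 in RUNX1-ETO_FIRST, 16.5 ± 4.26 in CSF3R_FIRST, 1.92 ± 0.152 in RUNX1-ETO_ONLY, 4.63 ± 0.293 in CSF3R_ONLY and 0.571 ± 0.0109 in EMPTY libraries. The double groups overlapped each other above all other groups, so Mmp8 counts were highest relative to Ltf where both alleles were present. Each allele alone also lay above EMPTY in every library. Mmp9 over Mmp8 was 0.0340 ± 0.0133 in RUNX1-ETO_FIRST, 0.0255 ± 0.00387 in CSF3R_FIRST, 0.0134 ± 0.0128 in RUNX1-ETO_ONLY, 0.223 ± 0.0161 in CSF3R_ONLY and 0.0340 ± 0.0117 in EMPTY libraries, with CSF3R_ONLY above all others. Chil3 over Ngp was 0.552 ± 0.0963, 0.766 ± 0.0684 and 0.821 ± 0.0155 in RUNX1-ETO_FIRST, CSF3R_FIRST and RUNX1-ETO_ONLY libraries, against 0.0130 ± 0.000889 in CSF3R_ONLY and 0.0237 ± 0.00510 in EMPTY. These ratios were not tested.

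**Figure D4:**
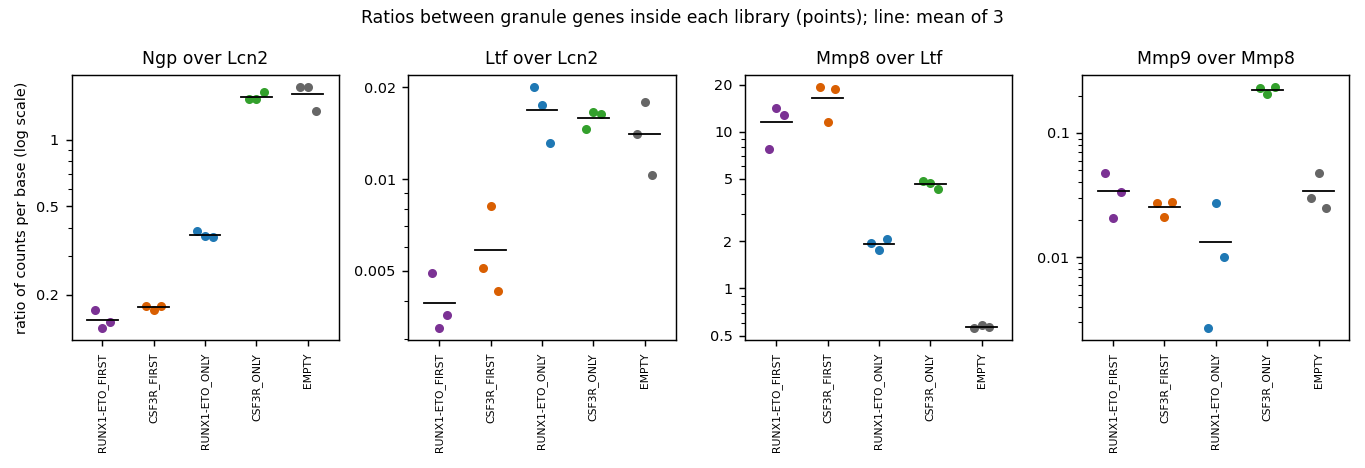
Ratio of counts per base between pairs of members inside each library (y axis, log scale), with points for libraries and lines for means of 3. Ngp over Lcn2 is lowest in the groups with the fusion (0.155 to 0.372), and Mmp8 over Ltf is highest in the double groups (11.5 and 16.5).

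Other late granule and cargo genes, a list of 18 of which 15 were tested, were set beside the members. The list also holds genes that are not granule contents, such as the calprotectin subunits S100a8 and S100a9. Counts of this and the following lists are to be read beside the shares of all genes called. Those were 33.1% in CSF3R_ONLY and 39% in RUNX1-ETO_ONLY cells, each against EMPTY. They were 18.3% between the orders, 44.9% in CSF3R_FIRST against CSF3R_ONLY cells and 22.9% for the additivity test in CSF3R_FIRST cells. In CSF3R_ONLY against EMPTY cells 12 rose and 1 fell. The NADPH oxidase subunit Cybb (log2 change 4.06), the metal transporter Slc11a1 (3.98) and the calprotectin subunit S100a9 (3.73) rose most, and the ficolin Fcnb fell (−2.82). In RUNX1-ETO_ONLY against EMPTY cells 0 rose and 8 fell, led by Fcnb (−3.99), the protease inhibitor Slpi (−3.98) and haptoglobin, Hp (−2.30). With the fusion first, 0 were higher and 10 lower than with the receptor first, led by Slc11a1 (−1.83), S100a9 (−1.55) and S100a8 (−1.47). In CSF3R_FIRST against CSF3R_ONLY cells 1 rose (the surface protease Adam8, 0.92) and 13 fell, led by Cybb (−5.01). The list median was −0.79 in the comparison of the orders, against −1.12 for the members.

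Primary granule genes formed a list of 11, all tested. Of them 4 rose and 2 fell in CSF3R_ONLY against EMPTY cells. Among the fallen was myeloperoxidase, Mpo, with 25610 ± 202 CPM in CSF3R_ONLY and 45049 ± 2691 CPM in EMPTY cells (log2 change −0.81; edgeR adjusted p = 2.93e-06). With the fusion alone 3 rose and 6 fell, led by the serine proteases Elane (−3.26), Prss57 (−2.32) and Prtn3 (−2.03). In the comparison of the orders 0 were higher and 4 lower with the fusion first, led by the granule membrane protein Cd63 (−0.99), and Mpo (0.15) did not pass the test. Against the sum of the single changes, 8 lay above it and 0 below in CSF3R_FIRST cells. The counts in RUNX1-ETO_FIRST cells were 4 above and 0 below, where 15.8% of all genes tested departed from the sum. The list median was −0.37 in the comparison of the orders, on the same side as the −1.12 of the members.

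Surface genes of mature neutrophils rose in CSF3R_ONLY against EMPTY cells in 10 of 13 cases and fell in 1. Ly6g, a defining surface marker of mouse neutrophils, was at 2.11 ± 0.128 CPM in CSF3R_ONLY and 0.115 ± 0.0625 CPM in EMPTY cells, low in both. The chemokine receptor Cxcr2, by contrast, averaged 320 ± 10.7, 462 ± 12.9, 132 ± 7.85, 270 ± 12.5 and 19.7 ± 2.31 CPM in RUNX1-ETO_FIRST, CSF3R_FIRST, RUNX1-ETO_ONLY, CSF3R_ONLY and EMPTY cells. In the comparison of the orders 3 surface genes were higher and 5 lower with the fusion first, led by the formyl peptide receptors Fpr1 (−2.35) and Fpr2 (−1.38). Both are sparse, with a mean log2 CPM over all libraries of −0.08 and −0.35. The next of the 5, Il1r2 (−1.23), had a mean log2 CPM of 4.41.

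Regulators of granule genes were given as their own list of 11, with 10 tested. With the fusion alone 2 rose and 8 fell. Cebpe, which encodes C/EBP-epsilon, fell most, to 28.1 ± 3.49 CPM in RUNX1-ETO_ONLY against 208 ± 47.6 CPM in EMPTY cells (log2 change −2.89, SE 0.140; edgeR adjusted p = 1.57e-10). It averaged 38.8 ± 4.38 CPM in RUNX1-ETO_FIRST, 54.2 ± 0.947 CPM in CSF3R_FIRST and 280 ± 2.15 CPM in CSF3R_ONLY cells. All 9 libraries with the fusion thus lay below all libraries without it, an arrangement shared among the members by Ngp and Camp only. Every other member lacked it, including the secondary granule genes Ltf and Lcn2. How many of all genes share it was not counted, and a link to Cebpe was not tested. Spi1 (PU.1), Cebpa, Cebpb, Cebpd and Gfi1 fell as well with the fusion alone, by 0.74 to 1.60 on the log2 scale.

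With the receptor alone 5 regulators rose and 2 fell, and the zinc-finger factor Klf5 rose most (log2 change 2.11, SE 0.117; edgeR adjusted p = 9.89e-10). Klf5 averaged 8.67 ± 0.774 CPM in RUNX1-ETO_FIRST, 13.3 ± 0.371 CPM in CSF3R_FIRST, 4.40 ± 0.370 CPM in RUNX1-ETO_ONLY, 34.3 ± 0.980 CPM in CSF3R_ONLY and 7.96 ± 1.38 CPM in EMPTY cells. In the comparison of the orders 0 regulators were higher and 4 lower with the fusion first, namely Klf5 (−0.62), Cebpe (−0.48), Cebpd (−0.46) and Runx1 (−0.29). Cebpa (0.18) and Spi1 (−0.18) did not pass the test. Runx1 counts may include reads of the introduced fusion.

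**Figure D5:**
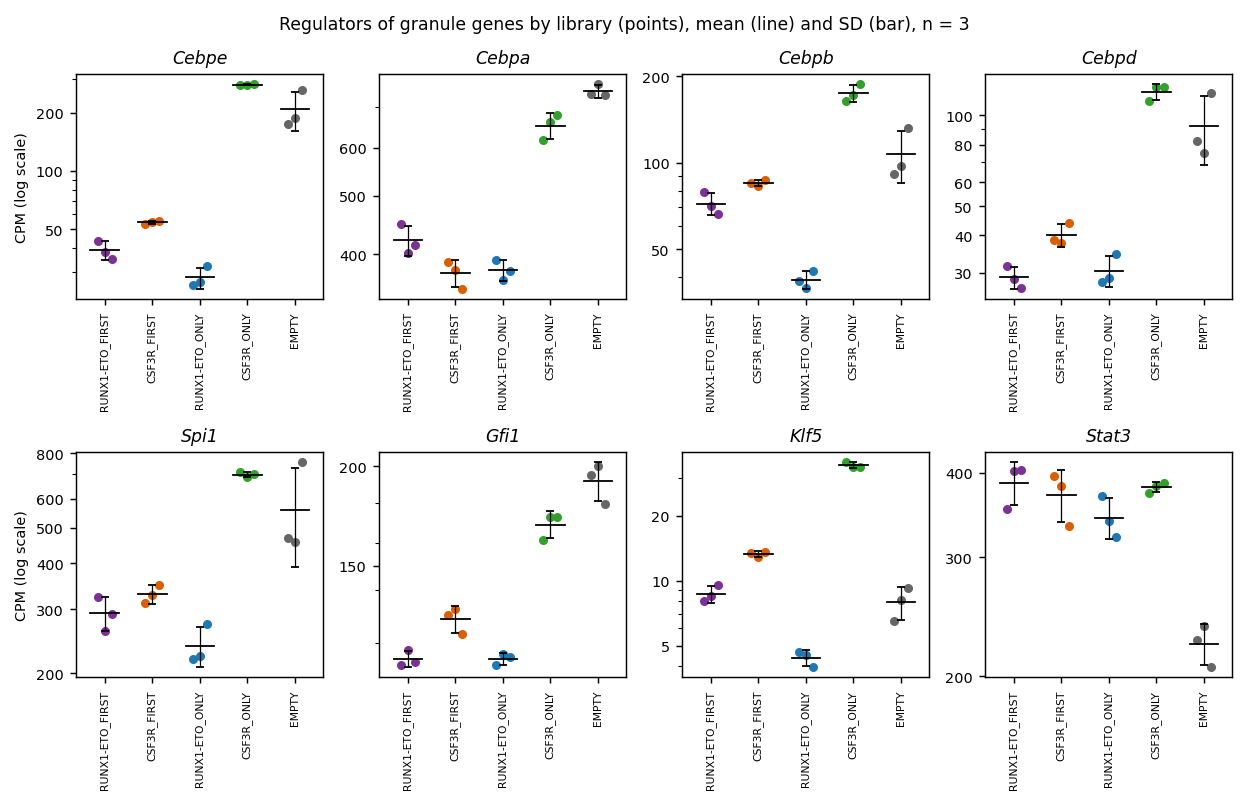
Levels of 8 regulators in every library, in CPM on a log scale whose range differs between panels; points are libraries, lines are means and bars are SD (n = 3 per group). Cebpe is lower in every library with the fusion (group means 28.1 to 54.2 CPM) than in CSF3R_ONLY (280 CPM) and EMPTY (208 CPM), and Klf5 is highest in CSF3R_ONLY (34.3 CPM).

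Inhibitors and partners of the members were a list of 9 with 6 tested. In CSF3R_ONLY against EMPTY cells 4 rose and 1 fell, and the metalloproteinase inhibitors Timp2 (log2 change 3.16) and Reck (2.31) rose most. Timp2 averaged 4.91 ± 0.639, 7.99 ± 0.427, 2.56 ± 0.445, 18.3 ± 0.640 and 2.05 ± 0.207 CPM in RUNX1-ETO_FIRST, CSF3R_FIRST, RUNX1-ETO_ONLY, CSF3R_ONLY and EMPTY cells, so the enzymes and this inhibitor were highest in the same cells. With the fusion first, 2 were lower, namely the integrin chain Itgam (−1.02) and Timp2 (−0.70), and 0 were higher. Of 9 packaging genes in the table, 0 were higher and 2 lower with the fusion first, led by the granule proteoglycan serglycin, Srgn (−0.83). That share is near the 18.3% of all genes called between the orders, so the count is not a result about this list.

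Of 14 paralogs of the members 7 were tested, and Chil4, Mmp3 and Mmp10 had 0 counts in every library. Chil1, a relative of Chil3, averaged 5.04 ± 0.409, 15 ± 0.701, 3.18 ± 0.491, 37.0 ± 2.0 and 1.33 ± 0.668 CPM in RUNX1-ETO_FIRST, CSF3R_FIRST, RUNX1-ETO_ONLY, CSF3R_ONLY and EMPTY cells. This order of group means was shared by Cd177, Mmp8, Mmp9, Mmp25 and Retnlg and by no other member. Retnla, a relative of Retnlg, was found at 1.45 ± 0.422 CPM in RUNX1-ETO_FIRST and 4.42 ± 0.885 CPM in CSF3R_FIRST cells and at 0.294 ± 0.213, 0.0387 ± 0.0335 and 0 CPM in RUNX1-ETO_ONLY, CSF3R_ONLY and EMPTY cells. In the comparison of the orders 1 paralog was higher and 5 lower with the fusion first.

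For each member the 3 genes of nearest profile were sought among 8575 genes, by the mean absolute difference of centred log2 CPM over the 15 libraries. Lcn2 had the closest neighbour, the leukocyte protein gene Lsp1 (0.135), followed by Klf5 (0.204). Ltf lay nearest to Wfdc21 (0.374) and S100a8 (0.433), and Mmp8 to the stefin gene Stfa2 (0.257) and to Csta2 (0.411). Cd177 and Retnlg also had genes of the stefin family among their neighbours, Cstdc4 (0.346) and Stfa2l1 (0.379) for Cd177 and Stfa2l1 (0.637) for Retnlg. These stefin genes are close paralogs of one another, so their counts are uncertain. Ngp lay nearest to Prg2 (0.487), Camp to Grb10 (0.437), Chil3 to Faah (0.344), Mmp25 to Pik3r5 (0.556) and Mmp9 to Nos2 (0.814). Among the members the closest pair was Cd177 and Mmp25 (0.488), and the most distant was Ngp and Chil3 (2.55).

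Markers of other cell types moved with some of these comparisons, and their part in the results was not tested. All 8 mast cell markers were lower with the fusion first. Their summed level was 15400 to 18600 CPM in RUNX1-ETO_FIRST, 27700 to 32200 in CSF3R_FIRST, 11600 to 12700 in RUNX1-ETO_ONLY, 3260 to 3310 in CSF3R_ONLY and 1590 to 2040 in EMPTY libraries, with Fcer1a at 0 in EMPTY. The sum was thus lowest in EMPTY and next lowest in CSF3R_ONLY. Single mast cell markers rose with the receptor alone. In CSF3R_ONLY against EMPTY cells 7 of the 8 were higher and 1 lower, with 33.1% of all genes called. Their median log2 change was 4.18, against 3.80 for the members. Of 12 monocyte and macrophage markers 9 were tested, and 1 was higher and 6 lower with the fusion first. Their sum was 602 to 616 CPM in RUNX1-ETO_FIRST, 806 to 846 in CSF3R_FIRST, 376 to 398 in RUNX1-ETO_ONLY, 1500 to 1520 in CSF3R_ONLY and 1120 to 1300 in EMPTY libraries, with C1qa at 0 in all groups. Of 9 eosinophil markers 5 were tested, and 1 was higher and 2 lower with the fusion first. Prg2, the nearest profile to Ngp, was among the 5. With the receptor alone against EMPTY, 4 of the 5 were higher and 0 lower. Of the 9 monocyte and macrophage markers tested, 4 were higher and 2 lower there. Both the monocyte and the eosinophil sums were highest in CSF3R_ONLY libraries, where 9 members were highest. The eosinophil sum was 44.4 to 50.1, 46.3 to 55.0, 69.8 to 75.1, 279 to 291 and 130 to 144 CPM in RUNX1-ETO_FIRST, CSF3R_FIRST, RUNX1-ETO_ONLY, CSF3R_ONLY and EMPTY libraries, with Ear1 at 0 in all groups but EMPTY and Ear2 at 0 in all groups but CSF3R_ONLY.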

How the data were processed

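Whole-number read counts were used as the authors deposited them, in a single table of genes by libraries, and no other unit was used. Per the labels' protocols, total RNA was column-purified, DNase-treated and sequenced as strand-specific mRNA libraries. Trimmomatic, STAR and DESeq2 are listed, along with genome build mm10, in the submitters' processing notes. No source used here gives the counting program, its annotation or its strand setting. The 1 entry of 52328 that names no gene, with 0.0179% to 0.0305% of a library's counts, was left out.

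Counts were tested with edgeR 4.0.16 (R 4.3.3), by its robust quasi-likelihood F test, with TMM scaling (factors 0.921 to 1.09) and the default filter (minimum count 10), over 15 libraries with a mean for each of 5 groups, which left 10 residual degrees of freedom. P-values, two-sided, were adjusted by Benjamini and Hochberg over 13123 genes, with a threshold of 0.05. Additivity is the change in a double group less the changes in both single groups, each against EMPTY. CPM used the TMM factors, and log2 CPM a prior count of 2. Exon lengths and positions came from GENCODE M21. Counting intervals are exact, at 95%, and cover counting error only. The script was tested on simulated counts.

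Members and gene lists were chosen with earlier results of these data known. Of each list, the text could name up to 3 that passed the threshold, by size of change, and up to 2 abundant ones that did not, as could the 3 genes nearest to each member. A few genes outside this rule, such as Ly6g, Chil1 and Retnla, were chosen after their values were seen. No pair of replicates agreed within sampling noise (chi-square per degree of freedom 2.46 to 74.7). Same-numbered libraries deviated together, with all 3 correlations over 0.1, for RUNX1-ETO_ONLY with EMPTY (0.283 to 0.455) and CSF3R_FIRST with EMPTY (0.136 to 0.37), where replicate 3 of each group is low in long transcripts. In the other 8 pairs of groups the correlations ran from −0.243 to 0.25, with the 0.25 at replicate 3 of CSF3R_FIRST and RUNX1-ETO_ONLY. Deviations from a mean of 3 libraries cancel within a group, so a shared outlying replicate 3 can raise all 3 correlations. Whether the numbers pair libraries can therefore not be told from them, and the labels do not say what a number marks. Alternatives were another scaling, no scaling, no filter, DESeq2 1.42.0, limma-voom (limma 3.58.1) with sample weights, only the groups compared, a replicate block, and leaving out libraries.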

Additional observations from a re-analysis of the deposited data

Results flagged for a closer look

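All 20 results below were picked out because the effect of the mutant receptor differed between cells with and without the fusion, by the test of that difference itself (edgeR, adjusted over all genes). Each value is the log2 change in a double group minus the sum of both single changes. In RUNX1-ETO_FIRST cells it was −4.15 for Ltf, −2.82 for Camp, −3.09 for Ngp, −1.82 for Lcn2 and −2.83 for Chil3. For Cd177 it was −3.41, for Mmp8 −4.67, for Mmp9 −5.90, for Mmp25 −6.15 and for Retnlg −7.18.

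In CSF3R_FIRST cells the value was −2.99 for Ltf, −2.06 for Camp, −2.28 for Ngp, −1.20 for Lcn2 and −1.54 for Chil3. Cd177 had −2.74, Mmp8 −2.97, Mmp9 −4.61, Mmp25 −4.63 and Retnlg −6.09. Values for Mmp9, Mmp25 and Retnlg rest on at most 5 counts in any EMPTY library, and Mmp25 passed the expression filter only through CSF3R_ONLY. Both orders share the 9 libraries of the single groups and EMPTY, so their results are not independent.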

How the results depend on the processing

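Over all alternatives the members' single values were unchanged in direction and side of the threshold in 2008 cases, were no longer past it in 33, newly past it in 15 and turned in sign in 6. The turned values all belonged to changes that had not passed. They were Lcn2 in RUNX1-ETO_ONLY against EMPTY (−0.17), at 0.075 by limma-voom with sample weights and 0.054 when the 4 libraries low in long transcripts were left out, and ranging over single libraries left out from −0.325 (EMPTY replicate 2) to 0.144 (EMPTY replicate 3); Ltf in CSF3R_FIRST against EMPTY (−0.13), at 0.03 without those 4; and, in RUNX1-ETO_ONLY against EMPTY, Mmp25 (1.05), which ranged from −0.443 (without RUNX1-ETO_ONLY replicate 1) to 1.6 (without RUNX1-ETO_ONLY replicate 2), and Mmp9 (0.43), which ranged from −0.519 (without RUNX1-ETO_ONLY replicate 2) to 0.885 (without RUNX1-ETO_ONLY replicate 1). The cause was not tested.

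Counts over all genes moved by more than 1.5 times in 5 cases. For RUNX1-ETO_FIRST against CSF3R_FIRST, 2407 genes became 4305 by limma-voom and 4449 without the 4 libraries. For RUNX1-ETO_ONLY against EMPTY, 5117 became 3388 with only the groups compared, a fit of 6 libraries. Genes not additive in RUNX1-ETO_FIRST cells, 2078, became 3480 by limma-voom and 3466 without the 4 libraries. Library sizes alone moved the median log2 change of all genes by more than 0.1 in CSF3R_FIRST against EMPTY (−0.191), RUNX1-ETO_FIRST against RUNX1-ETO_ONLY (−0.141) and the additivity test of CSF3R_FIRST (−0.196).

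Leaving out any 1 library gave 6 to 9 members called in RUNX1-ETO_FIRST against CSF3R_FIRST, 6 to 8 in RUNX1-ETO_FIRST against RUNX1-ETO_ONLY, 9 to 10 in CSF3R_ONLY against EMPTY and 4 to 5 in RUNX1-ETO_ONLY against EMPTY. By limma-voom all 10 members were lower with the fusion first, including Camp (−2.21; adjusted p = 0.0348) and Mmp25 (−1.56; adjusted p = 0.0368).

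With the replicate block, 2541 genes were called between the orders and 8 members were lower. Lcn2 passed in RUNX1-ETO_FIRST against EMPTY (0.49; adjusted p = 0.0168), and no other member's call changed with the block in any comparison. Depth limits Camp, Mmp9, Mmp25 and Retnlg, which have fewer than 10 counts in some libraries.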
